A study of Mus musculus with 7 samples.

Results

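CD4 T cells from the lung tumours of Control mice were described here in their 5 libraries, out of the 7 libraries of the series. Members were the libraries whose titles place them in the Control group, and the other 2 libraries, from mice that carry a Cre transgene, were not compared with them. Control mice were C57BL/6 animals over 8 weeks old, described as matched for gender and age. Their genotype was I-AbF/F, that is, with loxP sites flanking I-Ab, a gene of the MHC class II molecule, and with no Cre to act on them. Animals of the study received tamoxifen and orthotopic lung tumours, meaning tumour cells placed in the organ of origin. T cells were sorted as CD45+, CD3+ and CD4+, their RNA was prepared by NucleoSpin columns, and 3′ UTR sequencing libraries were made with a NEB Next Ultra kit. The design text calls the 5 libraries biological replicates, and the labels do not say whether a library came from 1 animal or from pooled animals.

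CD4 T cells recognise peptides on MHC class II through a T cell receptor, which signals through the CD3 chains and kinases such as Lck and Zap70. In tissues they can be naive or memory cells kept by the transcription factor Tcf7, helper cells steered by factors such as Tbx21, Gata3 or Bcl6, or regulatory cells that depend on Foxp3. Within tumours, regulatory cells and cells with inhibitory receptors such as Ctla4 and Pdcd1 are often found.

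Reads were counted by the authors in regions at transcript 3′ ends, and counts were summed here over the regions of each gene and scaled to CPM, the usual unit of counts relative to the library's total. Totals ran from 1484655 to 1724346 counts, and a count of 0 allows up to 3 counts, or 1.74 to 2.02 CPM, in a single library, which covers counting error only. Because the number of bases counted differs between genes, levels of different genes were also given as CPM per kilobase of counted region (CPM per kb). That length takes in every region with a count in any library, as for Cd4 a region of 249 bases with 1 count. Reads from 3′ ends need not scale with this length, so the values per kilobase are a second view and not a correction. In bulk libraries such as these, fewer cells of a type and less RNA per cell cannot be told apart. Replicate 1 stood apart from the rest, with 14643 genes expected at the smallest total against 10006 to 10747 in the other 4. The libraries also differed in Xist, expressed from the inactive X chromosome, with 340, 16, 76, 266 and 476 counts in replicates 1 to 5, and in the Y-linked Ddx3y, with 1, 34, 141, 2 and 0 counts. With such counts, the same sex cannot be assumed for every library, despite the stated matching. What part sex had in the spread between libraries was not tested.

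The marker genes of the sorted cells were present in every library. Cd4, the coreceptor used in the sort, had 215, 275, 454, 351 and 203 CPM in replicates 1 to 5, a mean of 299.6 ± 104 CPM (SD, n = 5). It was highest in replicate 3 and lowest in replicate 5. Cd3e, a signalling chain of the receptor complex, had 86.6, 34.4, 189, 235 and 91.5 CPM, with replicate 2 far below replicate 4. Tcf7, which encodes the factor TCF-1, had 238, 578, 296, 442 and 545 CPM. Foxp3, the factor of regulatory T cells, had 82.5, 49.8, 79.3, 148 and 33.2 CPM and was present in all 5, highest in replicate 4. All 13 genes of the list for the T cell receptor and CD4 had a count in each of the 5 libraries, where 25.2% of protein-coding genes did, and their median level was 265 CPM against 16.1 CPM for the 12461 protein-coding genes with any count. The lists of genes used throughout were chosen with earlier results of these data known.

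In the receptor itself, constant chains were counted far more than variable segments. Counting was done at transcript 3′ ends, and receptor transcripts end in the constant gene, so this order is not a finding about receptor use. Counts of V and J segments therefore do not measure how often a segment is used. Trbc2, a constant gene of the receptor beta chain, had 1725, 2385, 1799, 1598 and 1494 CPM, and Trbc1, the other beta constant gene, had 348, 187, 903, 937 and 869.9 CPM. The ranges of the 2 genes did not overlap, although Trbc1 supplied 7.26% of both together in replicate 2 and 37.0% in replicate 4. Trac, the alpha constant gene, had 265, 203, 364, 188 and 149 CPM. Per kilobase the order stayed the same, with 4286 CPM per kb for Trbc2, 909 CPM per kb for Trbc1 and 304 CPM per kb for Trac. All constant genes together took 0.270% of counts, J segments 0.0754% and V segments 0.00292%. Traj18, a J segment of the alpha locus, led the J segments with 259.8, 191, 249, 271 and 697 CPM and was highest in replicate 5. Its mean of 334 CPM was above the 234 CPM of Trac, and it exceeded Trac in replicates 4 and 5 only.

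Among the CD3 chains, Cd3d led in each of the 5 libraries. Cd3d had 486 ± 137 CPM, followed by Cd4, by Cd247, the zeta chain, with 279 ± 74.0 CPM, by Cd3g with 187 ± 111 CPM and by Cd3e with 127 ± 82.0 CPM. Cd3d was above Cd4 in 5 of 5 libraries, whereas the other neighbours in this order kept it in 3 or 4 of 5, and the ranges of all neighbours overlapped. Per kilobase Cd3d still led with 364 CPM per kb, but Cd3g came next with 217 CPM per kb and Cd247 moved to the end with 59.1 CPM per kb. Cd28, the costimulatory receptor for CD80 and CD86, had 447 ± 158 CPM, Ptprc, which encodes CD45, had 265 ± 124 CPM, and Cd5, an inhibitory surface receptor of T cells, had 206 ± 97.4 CPM.

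Tmsb4x, thymosin beta 4, which binds free actin, had the highest mean of all genes by CPM. Its level was 13110.3, 20065, 11474, 15059 and 9622 CPM in replicates 1 to 5, or 13866 ± 4005 CPM, and it was first by CPM in replicates 1, 2 and 5 and second in the other 2. Of the 30 protein-coding genes with the highest means, 18 encode cytosolic ribosomal proteins and 2, Eef2 and Tpt1, are in the list of translation factors. Eef2, the elongation factor that moves the ribosome along, had 5936 ± 1501 CPM, and the ribosomal proteins Rpl13a, Rps24 and Rps3 had 7187 ± 1341 CPM, 5933 ± 865 CPM and 5858 ± 1441 CPM. All counts of Rpl13a, 62.4% of those of Tpt1 and all of those of Wdr89 came from regions that overlap another gene's region on the same strand, so they may belong in part to the partner.

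The lymphocyte genes Laptm5, Ms4a4b and Cd52 were also among the 30. Laptm5, a lysosomal protein that lowers receptor signalling in lymphocytes, had 6469, 5007, 3258, 3804 and 3827 CPM, highest in replicate 1. Ms4a4b, a T cell membrane protein related to CD20, had 2584, 5737, 3053, 5094 and 3426 CPM, with replicate 1 the lowest. Cd52, a short surface glycoprotein of lymphocytes, had 5751, 2165, 4213, 3378 and 2318 CPM, with replicate 1 the highest. Actb, beta actin, had 4401 ± 863 CPM, Cotl1, a protein that binds filamentous actin, had 2608 ± 586 CPM, and Shisa5, a membrane protein of the endoplasmic reticulum, had 2264 ± 348 CPM. The order of these genes depended in part on length: 14 of the 30 stayed among the 30 highest of 7332 protein-coding genes per kilobase and 28 among the 100 highest. Tmsb4x had rank 3 per kilobase with 21105 CPM per kb, and Cd52, with 5174 CPM per kb, passed Rpl13a, with 4044 CPM per kb. All of the Tmsb4x counts came from a region of 657 bases on the minus strand of chromosome X at 167206844 to 167207500 (mm10), 408 of them in the annotated 3′ UTR and 249 past the gene's end.

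**Figure D1:**
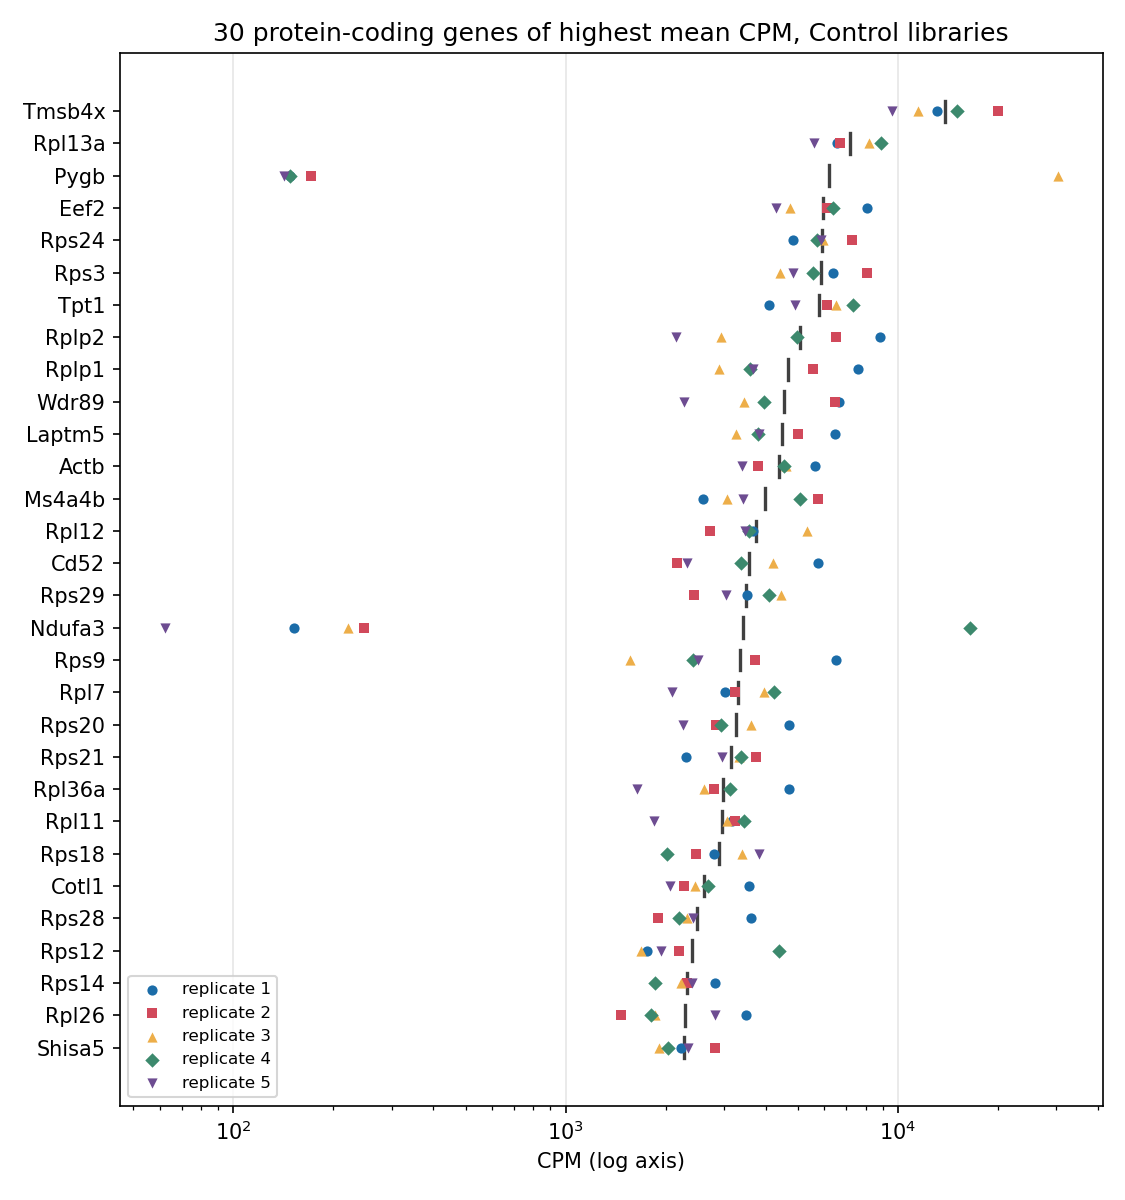
Level in CPM (log axis) of the 30 protein-coding genes with the highest means, 1 row a gene, 1 point a Control library, and a bar at the mean. Tmsb4x sits highest by its mean at 13866 CPM, while the means of Pygb and Ndufa3 each rest on 1 library.

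Counts were spread over many genes beyond these. The 10 highest genes of any kind held 6.84% of the mean CPM, the 100 highest held 27.01%, and 495 genes held 50% of it. There were 102 protein-coding genes with a mean of at least 1000 CPM and 1676 with at least 100 CPM, which is 7.67% of those in the file. In the T cell identity and state lists, 66 of 164 genes reached 100 CPM and 104 had a count in all 5 libraries. Across the lists for other cell types, 5 of 135 genes reached 100 CPM and 15 had a count in all 5. Over all protein-coding genes in the file, 25.2% had a count in all 5, and list counts of this kind given below stand beside that share.

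Genes of protein synthesis took a large share of all counts. The 84 cytosolic ribosomal protein genes took 11.996 ± 1.54% of counts, with 14.3% in replicate 1 and 10.03% in replicate 5. Processed pseudogenes took 11.7, 8.85, 7.78, 7.24 and 6.17% in replicates 1 to 5, led by Gm10073 with 11753, 5697, 3325, 3237 and 3378 CPM. Of the 10 highest, 4 are named as copies of ribosomal protein genes and 1 as a copy of Tpt1. Reads can be split between such copies and their parent genes, so levels of both are uncertain. Rps23-ps1, a copy of Rps23, was steady, with a coefficient of variation (CV, the SD over the mean) of 0.0502 and 3075, 3155, 3505, 3303 and 3264 CPM. Translation factors summed to 22574, 22487, 22493, 23616 and 17712 CPM and were lowest in replicate 5. In that list Eef1a1, the main carrier of aminoacyl tRNA to the ribosome, had 1719 ± 538 CPM, with 98.9% of its counts in a region shared with another gene's entry.

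Small RNA genes also received counts, which in this assay come from longer transcripts read at their location and do not measure the mature small RNA. SnoRNA genes took 3.77 ± 0.472% of counts, of which 82.2% lay in regions overlapping another gene on the same strand, as for Snord35a inside Rpl13a. MicroRNA genes took 1.19 ± 0.108%, of which 66.2% lay in such regions. Mir682 had 2555 ± 580.1 CPM, all of it shared with the pseudogene Gm4149. Mir3091, which lies within Rps21, had 1009, 1738, 2092, 2517 and 2401 CPM in a region shared with no other, and Mir142, within its host transcript Mir142hg, had 880.3, 989, 224, 447 and 924 CPM. The last is of interest here since miR-142 is known as a microRNA of blood cells. The mature sequences of these genes, from RefSeq on GRCm38.p6, are given to identify the 3 genes. The seed (bases 2 to 8) is in capitals, and no seed is shared between them.
mmu-miR-142a-5p: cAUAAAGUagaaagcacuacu
mmu-miR-142a-3p: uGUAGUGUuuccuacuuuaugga
mmu-miR-3091-5p: cAUGGGUCugguugggcccgc
mmu-miR-3091-3p: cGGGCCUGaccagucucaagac
mmu-miR-682: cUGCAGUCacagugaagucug

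The 2 arms of miR-142a lie on the plus strand of chromosome 11 at 87756867 to 87756887 and at 87756903 to 87756925, and the region counted for Mir142 starts just after them, at 87756928 to 87757176. The counted region of Mir142hg begins 94 bases further on. Mir142 had 1484, 1468, 365, 770 and 1504 counts in replicates 1 to 5, and Mir142hg had 1429, 1439, 340, 709 and 1421. Both were low in replicates 3 and 4 and high in the other 3 libraries, so the counts of the miRNA gene moved with those of its host transcript.

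Signalling genes downstream of the receptor were well represented. Of the proximal signalling list, 21 of 23 genes had a count in all 5 libraries, and the list summed to 5877, 5675, 5069, 5202 and 8114 CPM, highest in replicate 5. Lck, the kinase bound to CD4, had 1499, 1148, 1202, 1028 and 1991 CPM. Fyn, a Src family kinase, had 82.5, 127, 203, 144 and 215 CPM. Lck was above Fyn in 5 of 5 libraries, with no overlap of ranges, and also per kilobase (888 CPM per kb against 93.0 CPM per kb). Zap70, which docks to the phosphorylated CD3 chains, had 39.1, 69.4, 3.69, 106 and 9.83 CPM. Among the adaptors, Lat had 1125, 1302, 678, 660.0 and 2139 CPM and was highest in replicate 5, Sla, which promotes receptor turnover, had 476 ± 174 CPM, and Grap2 had 317 ± 90.6 CPM. Plcg1, the phospholipase that starts calcium release, had 264 ± 125 CPM.

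An exact two-sided test of sign flips over 5 libraries cannot give a p below 0.0625, so the order of 2 genes in a family was read from the number of libraries that showed it and from whether the ranges overlapped. In 28 families, 126 pairs of neighbours were compared. The order held in 5 of 5 libraries for 43 pairs, the ranges did not overlap for 24, and 94 kept their order per kilobase.

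Of the lineage factors, Tcf7 was first in every library. Tbx21, which directs Th1 cells, had 157, 302, 193, 162 and 81.7 CPM, highest in replicate 2. Rora, a factor of Th17 and innate cells, had 146, 39.1, 155, 185 and 88.5 CPM, and Gata3, which directs Th2 cells, had 132, 136, 44.9, 58.0 and 83.6 CPM. Rora was above Gata3 in 4 of 5 libraries and Gata3 above Foxp3 in 3 of 5, all with overlapping ranges. Per kilobase Tcf7 (238 CPM per kb) and Tbx21 (188 CPM per kb) stayed first, and Rora (12.9 CPM per kb) stood behind Gata3 (58.9 CPM per kb), Foxp3 (30.3 CPM per kb) and Bcl6 (24.4 CPM per kb). Bcl6, the factor of follicular helper cells, had 24.3, 40.4, 79.9, 13.9 and 2.46 CPM. Eomes, a factor of cytotoxic and memory cells, had 4 counts in replicate 1 and 0 in the other 4 libraries.

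**Figure D2:**
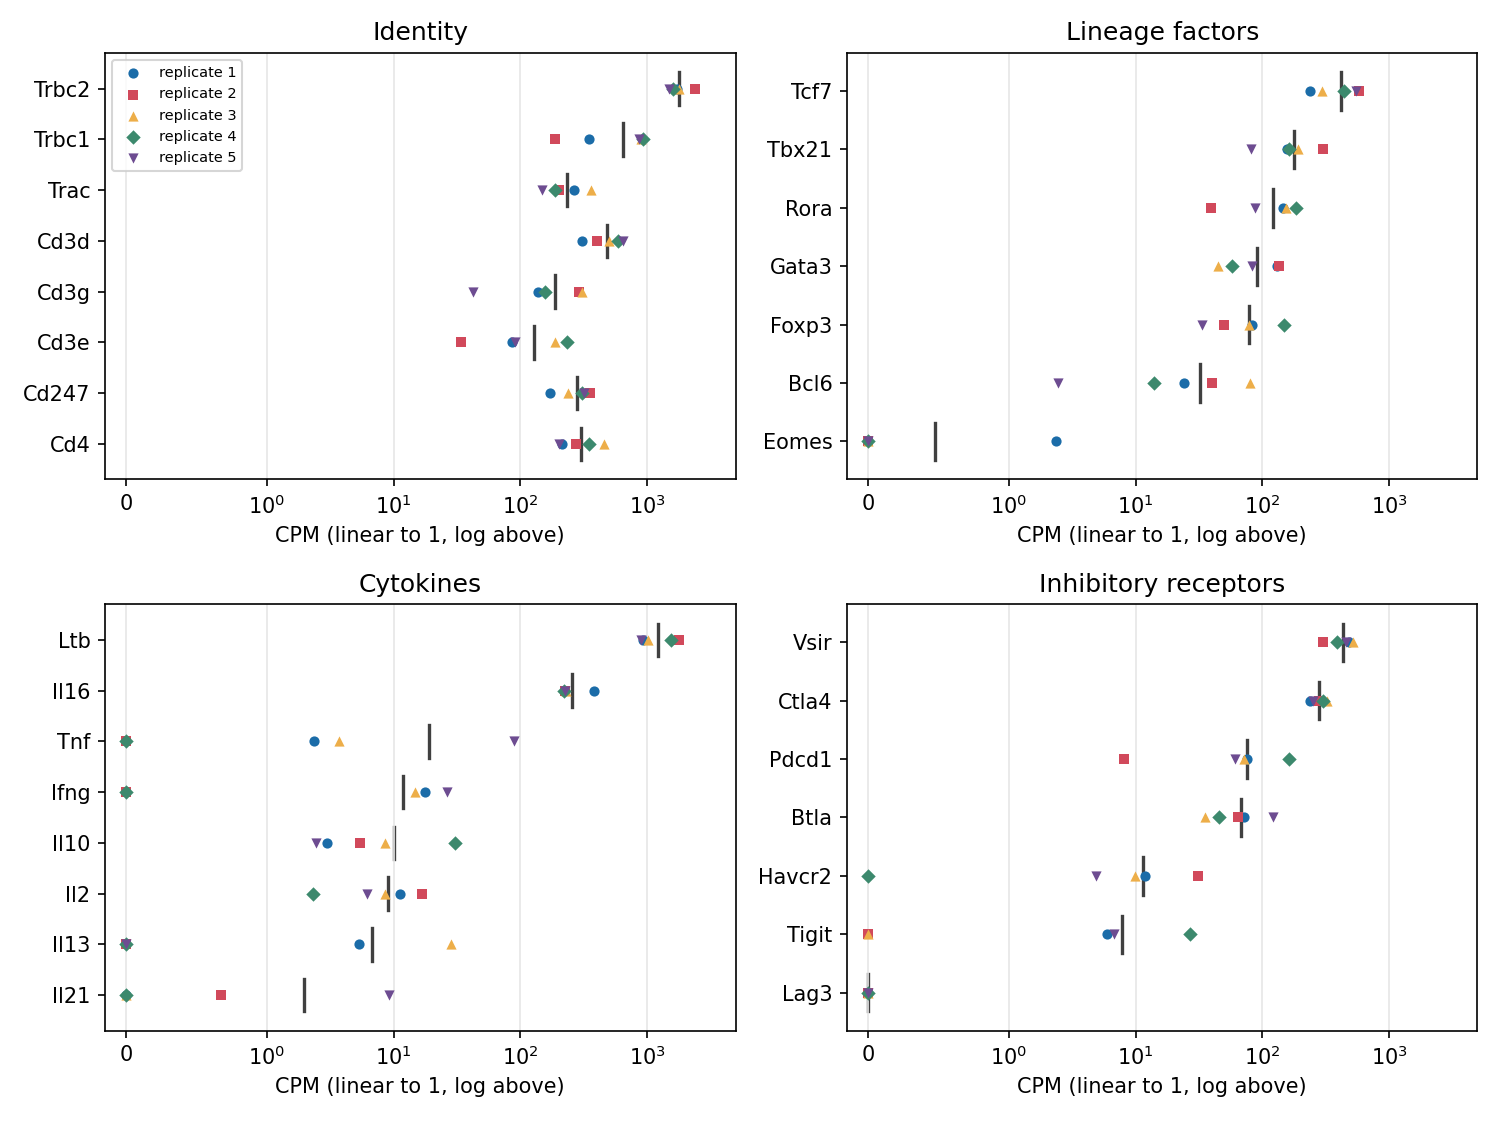
Level in CPM (linear up to 1, log above) of genes of T cell identity, lineage factors, cytokines and inhibitory receptors, 1 point a Control library and a bar at the mean. Tcf7 leads the lineage factors in all 5 libraries, Ltb leads the cytokines, and Lag3 is at 0 throughout.

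Genes of naive and central memory cells had the highest mean sum of the T cell state lists, although the activation list was above them in replicates 2 and 3. The state lists hold 12 to 23 genes, and a sum depends on which genes were listed, so this is not a rank of cell types. The naive and central memory genes summed to 4636, 5725, 4429, 5668 and 6938 CPM, and 17 of 19 had a count in all 5 libraries. Ets1, a factor of lymphocyte development, had 689, 739, 579, 478 and 1013 CPM, and Klf2, which keeps naive cells recirculating, had 322, 685, 373, 368 and 598 CPM. Bcl2, which protects resting cells from death, had 385, 261, 254, 450.0 and 732 CPM, Foxp1 388 ± 150.4 CPM, Il7r, the receptor for interleukin-7, 382 ± 149.9 CPM, and Actn1, an actin-bundling protein, 679 ± 166 CPM. Ccr7, a chemokine receptor that guides cells to lymph nodes, had 176, 216, 153, 390.3 and 324 CPM and was highest in replicate 4. Satb1, a chromatin organiser, was steadier, with 356, 246, 253, 294 and 313 CPM.

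Regulatory T cell genes summed to 2315, 3316, 3604, 3001 and 2018 CPM, lowest in replicate 5. Tnfrsf18, which encodes the costimulatory receptor GITR, made up 41.03% of the mean sum, with 1061, 1665, 1366, 1261 and 496 CPM. Ikzf2, the factor Helios, had 134, 282, 443, 196 and 362 CPM, Ctla4, the receptor that competes with Cd28, had 238, 282, 327, 304 and 251 CPM, and Izumo1r, known as folate receptor 4, had 122, 394, 334, 263 and 163 CPM. Ctla4 was the steadiest of these, with a CV of 0.131. Il2ra, the high affinity chain of the interleukin-2 receptor, had 75.3, 75.4, 141, 62.6 and 40.5 CPM, and Tnfrsf4, or OX40, had 215, 252, 321, 149 and 171 CPM. Klrg1, a receptor of effector and activated regulatory cells, ranged from 15.5 to 264 CPM. Of this list, 14 of 21 genes had a count in all libraries, and none was at 0 throughout.

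Helper and effector genes were mostly receptors and signalling proteins, with few counts for their cytokines. Th1 genes summed to 1872, 2746, 2232, 2123 and 1881 CPM, led by Ifngr1, a chain of the interferon gamma receptor, with 624, 804, 352, 284 and 383 CPM. In the same list Il18r1, the receptor for interleukin-18, had a steady 184, 174, 165, 165 and 202 CPM. Cxcr6, a chemokine receptor of resident and effector cells, had 49.8, 53.2, 138, 366 and 47.3 CPM, with replicate 4 well above the others. Th2 genes summed to 1304 to 1849 CPM, of which Il4ra (463 ± 63.9 CPM), Il2rg (429 ± 81.3 CPM) and the factor Maf (313 ± 118 CPM) made up 80.4%, and none of these is limited to Th2 cells. Il1rl1, the interleukin-33 receptor of Th2 and tissue regulatory cells, had 29.1, 74.1, 100.9, 39.4 and 59.6 CPM. Th17 genes summed to 405 to 699.7 CPM, of which Stat3 gave 58.04%. Il17a, Il17f, Il23r and Il1r1 were at 0 in all 5 libraries.

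Follicular helper genes summed to 2039, 2058, 1988, 2620.1 and 2025 CPM, with replicate 4 the highest. Icos, the costimulatory receptor that such cells need, had 621, 608, 528, 960.4 and 865 CPM, Il21r 545 ± 139.6 CPM, and the SLAM receptors Ly9 and Slamf6 299 ± 127 CPM and 281 ± 100.5 CPM. Cxcr5, which guides cells to follicles, had only 2.97, 0, 43.0, 2.32 and 0.614 CPM, and Ascl2 was at 0 throughout. Cytotoxic genes summed to 547, 564, 1485, 863 and 623 CPM, highest in replicate 3. Gzmb, a granule protease, had 38.6, 133, 416, 195 and 189 CPM, Srgn, the granule proteoglycan, 170.2, 69.4, 375, 69.6 and 96.5 CPM, and Nkg7, a granule membrane protein, 38.0, 60.6, 208, 132 and 77.4 CPM. All 3 were highest in replicate 3. Ctsw, a cathepsin of cytotoxic cells, was highest in replicate 4, with 49.2, 22.9, 151, 234 and 3.07 CPM. Tissue residency genes summed to 1505, 2357, 1625, 1687 and 1107 CPM, led by Rgs2 (613, 1007, 376, 326 and 378 CPM) and Rgs1 (286, 718, 205, 206 and 285 CPM), regulators of G protein signalling that both peaked in replicate 2. Itgae, which encodes CD103, had 5.93, 4.04, 19.7, 16.8 and 0 CPM, and Zfp683, known as Hobit, was at 0.

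**Figure D3:**
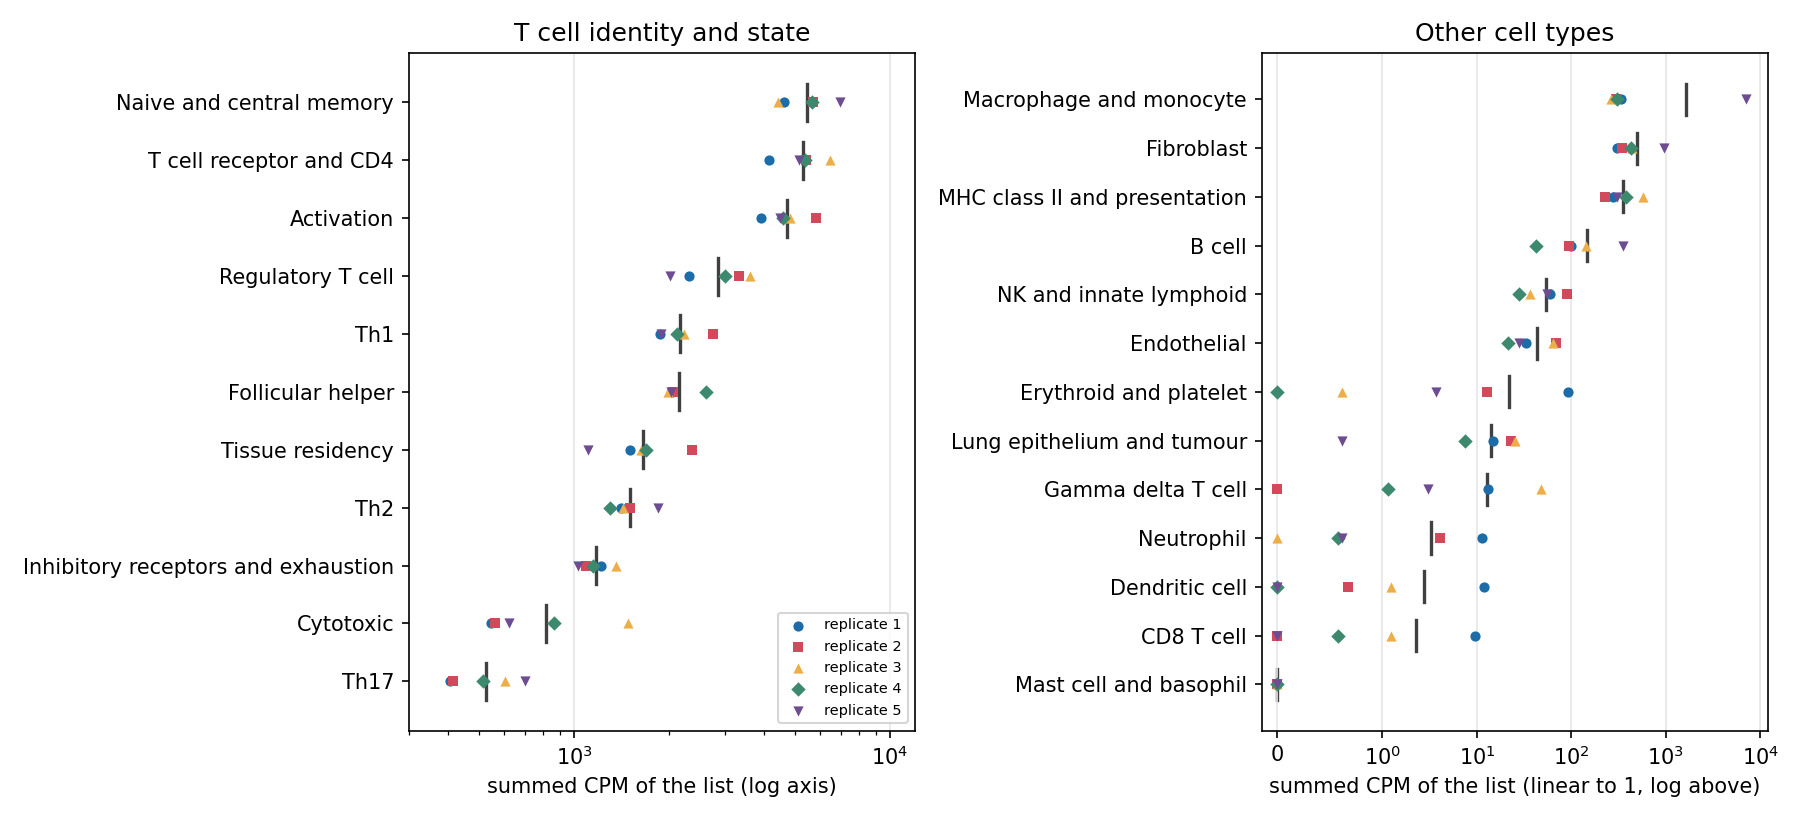
Summed CPM of T cell identity and state lists (left, log axis) and of lists for other cell types (right, linear up to 1 and log above), 1 point a Control library and a bar at the mean. The naive and central memory list has the highest mean of the state lists, 5479 CPM, and the macrophage and monocyte sum is carried by replicate 5.

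Inhibitory receptors differed widely among themselves. Vsir, which encodes VISTA, had 487, 303, 524, 393 and 461 CPM and was above Ctla4 in 5 of 5 libraries, but per kilobase the order turned, with 200.3 CPM per kb for Ctla4 and 102 CPM per kb for Vsir. Pdcd1, which encodes PD-1, had 75.9, 8.08, 71.3, 162 and 60.8 CPM, lowest in replicate 2 and highest in replicate 4. Btla had 72.4, 64.7, 35.1, 45.8 and 121 CPM, Havcr2, or TIM-3, 11.9, 31.0, 9.84, 0 and 4.91 CPM, and Tigit 5.93, 0, 0, 26.7 and 6.76 CPM. Lag3 and Cd160 had 0 counts in all libraries. Ctla4 was above Pdcd1, and Btla above Havcr2, with no overlap of ranges. Tox, a factor of exhausted and memory cells, had 80.1, 122, 87.9, 71.3 and 32.6 CPM. The list summed to 1171 ± 126 CPM, a CV of 0.108.

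Costimulatory receptors summed to 9186, 6847, 8709.9, 7982 and 6255 CPM, of which Cd52 gave 45.7% of the mean. Without Cd52 the sums ran from 3435 CPM in replicate 1 to 4683 CPM in replicate 2, so that replicate 1 went from highest to lowest. Apart from Cd52, the members with the most counts were Tnfrsf18, Icos, Cd28 and Cd27 (305, 188, 237, 401 and 328 CPM). Tnfrsf18 was above Cd27 in 5 of 5 libraries without overlap, and Tnfrsf4 above Tnfrsf9, or 4-1BB, which had 25.5, 49.2, 95.3, 69.6 and 49.1 CPM. Activation genes summed to 3914, 5844, 4813, 4579.7 and 4473 CPM, highest in replicate 2. Nfkbia, the inhibitor that NF-kappaB induces, had 1266, 1899, 1145, 1191 and 888 CPM, and Dusp2, a phosphatase of activated lymphocytes, had 323, 1347, 817, 635 and 1139.6 CPM. Cd69, the early activation receptor, had 113, 175, 192, 99.2 and 67.0 CPM, Egr1 144 ± 33.2 CPM and Cd44, a receptor for hyaluronan on antigen-experienced cells, 103, 86.9, 157, 82.4 and 131 CPM.

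Cytokine counts came chiefly from a pair of genes. Ltb, lymphotoxin beta, had 923, 1776, 1017, 1548 and 889.6 CPM and made up 66.3% of the mean sum of the list, and Il16, a chemoattractant of CD4 cells, had 383, 224, 231, 223 and 225 CPM. The ligand Cd40lg, through which helper cells license B and dendritic cells, had 35.0, 100.4, 77.5, 142 and 71.3 CPM. Tnf had 2.37, 0, 3.69, 0 and 89.7 CPM, nearly all in replicate 5. Ifng, the Th1 cytokine, had 30, 0, 24, 0 and 43 counts in replicates 1 to 5, Il10 5, 8, 14, 53 and 4, Il2 19, 25, 14, 4 and 10, Il13 9, 0, 46, 0 and 0 and Il21 0, 1, 0, 0 and 15. Il3, Il4, Il5, Il6, Il9, Il17a, Il17f, Csf2 and Cd70 were at 0 in all 5, so that 9 of the 30 ligands were not detected at this depth. The other 21 had a count in some library, as did 12461 of the 21846 protein-coding genes in the file, so the ligands were not absent more often than genes at large. Among the chemokines Ccl5, which attracts effector cells, had 158, 161, 204, 382 and 189.8 CPM and Ccl4 18.4, 14.8, 50.4, 47.0 and 42.4 CPM, and the other members stayed at or under 56.8 CPM in every library, the value of Ccl3 where it was highest.

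Among receptors, 22 of 28 cytokine receptor chains and 13 of 19 chemokine and homing receptors had a count in all 5 libraries. For the ligands the count was 9 of 30, and for the chemokines 3 of 12, shares near the 25.2% of all protein-coding genes, and the difference between receptors and ligands was not tested. Il2rb, the beta chain for interleukins 2 and 15, had 752, 1844, 1002, 1492 and 1574 CPM and was above every other chain of its family in 5 of 5 libraries. Il17ra had 566, 724, 788, 761 and 673 CPM, Il21r 615, 521, 747, 437 and 403 CPM, and Il4ra 528, 493, 419, 374 and 500.1 CPM. Il2ra and Il15ra came last in that family, each below its neighbour without overlap. Selplg, the ligand of selectins, led the homing receptors with 615, 1059, 584, 913 and 1433 CPM. Ccr7 and Cxcr6 had overlapping ranges, as did Cxcr6 and Ccr2. S1pr1, which draws cells out of tissue, had 147, 191, 386, 172 and 202 CPM. Among integrins Itgal, the alpha chain of LFA-1, had 249.7, 463, 461, 342 and 508 CPM and was above Itga4 (132, 129, 234, 265 and 309 CPM) in 5 of 5 libraries with overlapping ranges.

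Downstream of these receptors, Jak1 had 680.4, 475, 1094, 725 and 929.5 CPM and lay above Jak2 (74.8 CPM), Jak3 (74.1 CPM) and Tyk2 (61.2 CPM) without overlap. Jak1 also led per kilobase with 368 CPM per kb, where Jak2 and Jak3 changed places. Socs3, a feedback inhibitor of these kinases, had 109.7, 226, 126, 152 and 321 CPM and was above Socs1 (75.3, 114, 113, 120.0 and 181 CPM) in 5 of 5 libraries.

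In several transcription factor families 1 or 2 members led in all 5 libraries. Irf1, an interferon-induced activator, had 1350.1, 1929.7, 876, 732 and 1716 CPM and was above Irf9 (333, 333, 190.0, 209 and 343 CPM) without overlap, while Irf4, which rises on strong receptor signals, had 8.30, 0, 6.76, 36.5 and 0 CPM. Runx3 had 200.5, 286, 249, 367 and 179 CPM and lay above Runx1 (55.2, 93.0, 8.61, 23.2 and 9.22 CPM) without overlap. In the Ikaros family Ikzf2 and Ikzf1 (243, 241, 395, 249.9 and 263 CPM) were level, and both lay above Ikzf5, Ikzf3 and Ikzf4 in each library. Of the AP-1 factors, Junb had 1104, 2126, 891, 647 and 983 CPM and Jun 696, 1849, 777, 431 and 1014 CPM, both highest in replicate 2, and Fos had 43.3, 72.1, 11.7, 0 and 13.5 CPM. Nfatc3 led Nfatc2 in 5 of 5 libraries (118 CPM and 45.0 CPM). Rela led the NF-kappaB genes in 4 of 5 (149, 189.9, 165, 198 and 315 CPM). Outside these families Bcl11b, which holds cells in the T lineage, was high and steady with 832, 934, 1180.1, 935 and 1086 CPM, and Id2, an inhibitor of E proteins, had 467, 899, 574, 474 and 1154 CPM.

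The quiescence list held more counts than the cell cycle list. Btg1, an antiproliferative factor of resting lymphocytes, had 1319.8, 2058, 1875, 1816 and 3614 CPM, and Txnip, a brake on glucose uptake, had 533, 1074, 582, 1168 and 1573 CPM. Both were highest in replicate 5. The list summed to 5129, 6542, 5618, 5996 and 8808 CPM, and that of the cell cycle to 4076, 3509, 3162, 3108 and 2813 CPM. In the latter Ccnd2, a D-type cyclin of the early cycle, gave 47.3% with 2293, 1346, 1473, 1336 and 1429 CPM, and Ccnd3 had 406 ± 140.0 CPM. Tubb5, a beta tubulin, had 326 ± 130.3 CPM and Mcm4, of the replicative helicase, 167 ± 102 CPM. Pcna, the replication clamp, had 89.1 ± 54.9 CPM, Birc5, of the mitotic passenger complex, 72.2 ± 28.3 CPM, and Mki67, a marker of cycling cells, 18.4, 0, 33.8, 29.0 and 0 CPM. Among survival genes Mcl1 had 849, 2194, 1189, 1277 and 1706 CPM and was above Bcl2 without overlap, whereas per kilobase Bcl2a1b came first (656 CPM per kb against 555 CPM per kb). Bax, a pore-forming death factor, had 229.6 ± 60.7 CPM and Bcl2l11, or Bim, 185 ± 53.0 CPM.

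Antigen presentation by class I and the interferon response were broadly expressed. All 20 class I and loading genes had a count in all 5 libraries. H2-K1, a class I heavy chain, had 1885, 1584, 2845, 2225 and 1683 CPM and was above H2-D1 (878, 1347, 1187, 1707 and 1372 CPM) in 5 of 5 libraries with overlapping ranges, and B2m, the light chain, had 1258, 1097, 1966, 2381 and 1171 CPM. Such genes have close copies, among which counting can be split. Interferon-stimulated genes summed to 5466, 7369, 7416, 5381 and 6575 CPM. Samhd1, which breaks down nucleotides, had 1160.2, 1169, 1361, 1124 and 2052 CPM, Ly6a, or Sca-1, 501, 1121, 2235, 1044 and 636 CPM, Zbp1, a nucleic acid sensor, 386 ± 105 CPM, and Isg15, a ubiquitin-like modifier, 400.4, 688, 242, 188 and 77.4 CPM. Ly6a was highest in replicate 3 and Isg15 in replicate 2. Of the immunity-related and guanylate-binding GTPases, Irgm2 had 280.0, 435, 548, 188 and 604 CPM, Igtp 226 ± 85.5 CPM and Gbp4 199 ± 90.8 CPM.

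The GIMAP family, GTPases of lymphocyte survival, had counts for all 8 members in every library. They summed to 2347, 1893, 1881, 2069 and 1944 CPM. Gimap1 had 853, 321, 277, 424 and 62.7 CPM, the highest CV of the family at 0.753, while Gimap9 had 320.3, 323, 277, 367 and 538 CPM and Gimap4 364, 201, 284, 319 and 314 CPM, a CV of 0.203. By CPM Gimap1 came first, and per kilobase Gimap9 did (362 CPM per kb against 327 CPM per kb).

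Cytoskeletal genes had the highest summed CPM of the lists, at 32454, 35738, 29088, 32159 and 23687 CPM, with 27 of 27 genes counted in all 5 libraries. Besides Tmsb4x, Actb and Cotl1 it held Arpc1b, of the actin-branching complex (1316 ± 218 CPM), Msn, which links membrane and actin (826 ± 213 CPM), and Lcp1, the leukocyte plastin (597, 685, 809.9, 610.1 and 634 CPM). Tmsb10 had 504 ± 116 CPM, below Tmsb4x in every library. S100a4 had 2297, 1713, 1903, 1766 and 829 CPM and S100a6 1173, 1782, 1430.4, 1615 and 819.5 CPM, both lowest in replicate 5, as was their list with 5414, 5380.4, 5289, 5169.5 and 3532 CPM. All counts of S100a4 lay in a region that overlaps another gene's on the same strand. Chaperone genes summed to 7661, 9479.6, 7453, 6425 and 4206 CPM: 11 of 20 members with at least 10 CPM were highest in replicate 2 and 14 were lowest in replicate 5, where 20.6% and 19.6% of all protein-coding genes of that level were. Hspa5, of the endoplasmic reticulum, had 988, 2038, 1166, 1279.9 and 553 CPM and Hspa1b, an inducible chaperone, 315, 678, 568, 67.9 and 114 CPM. Immediate early genes were likewise highest in replicate 2 for 11 of 23 members, with Dusp1 at 178, 469, 175, 161 and 135 CPM. Among metabolic genes, glycolysis summed to 1126 to 1915 CPM, led by Ldha with 391, 272, 474, 391 and 262 CPM, while Gapdh had only 20, 4, 5, 54 and 19 counts. All counts of Gapdh came from a region of 598 bases. Whether its reads were lost or split in mapping or counting was not tested, so its level and the glycolysis sum are uncertain. ATP synthase genes summed to 2935 to 4398 CPM, led by Atp5g3 with 871, 796, 963, 756 and 880.4 CPM.

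Long non-coding RNAs were led by Gas5, a host of snoRNAs, with 2764, 1827, 2227, 3579 and 2271 CPM, all in regions shared with other entries. Neat1, the scaffold of paraspeckles, had 1028, 661, 1076, 956 and 1763 CPM and Malat1, of nuclear speckles, 682, 156, 596, 322 and 804 CPM. Both were lowest in replicate 2 and highest in replicate 5.

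Markers of other cell types were low in most libraries. The CD8 genes Cd8a and Cd8b1 together had 9.49, 0, 1.23, 0.580 and 0 CPM. In the B cell list, Ms4a1, Pax5, Blnk and Jchain were at 0 throughout and Ighm, the IgM constant gene, held 95.8% of the sum with 94.9, 91.6, 145, 18.6 and 353 CPM. All 7 genes of mast cells and basophils were at 0. Gamma delta T cell genes summed to 13.05, 0, 47.4, 1.16 and 3.07 CPM, dendritic cell genes to 0 to 11.9 CPM, neutrophil genes to 0 to 11.3 CPM, and lung epithelium and tumour genes to 0.614 to 25.2 CPM. Natural killer and innate lymphoid genes summed to 27.8 to 90.3 CPM, with Ncr1 at 0, endothelial genes to 21.5 to 68.7 CPM, with Cdh5 and Tek at 0, and erythroid and platelet genes to 91.3, 12.8, 0.615, 0 and 3.69 CPM.

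Fibroblast and myeloid genes stood higher. Fibroblast genes summed to 307, 346, 443, 428 and 957 CPM, highest in replicate 5, with 7 of 15 counted in all libraries and Pdgfrb and Col6a1 at 0. Col1a2, a collagen chain, had 106, 33.7, 149, 23.2 and 206 CPM, Sparc, a matrix glycoprotein, 64.7, 30.3, 30.7, 88.1 and 217 CPM and Col1a1 61.1, 98.3, 76.3, 109 and 74.9 CPM. The class II list summed to 279, 225, 576, 379 and 301 CPM, mainly from Ctss, a lysosomal protease (168, 164, 329.6, 185 and 142 CPM), with H2-Ab1, a chain of I-Ab, at 64.1, 51.2, 113, 88.7 and 67.6 CPM. Macrophage and monocyte genes summed to 335, 296, 265, 307 and 7047 CPM. Of that list Apoe alone gave 2.97, 0, 23.4, 0.580 and 6676 CPM, Ctsd, a lysosomal protease of many cells, gave 289, 248, 191, 229 and 283 CPM, and Adgre1, C1qc and Lyz1 were at 0. Without Apoe the list ran from 242 to 370.4 CPM, most of it from Ctsd in every library. What part these genes had in the other levels of replicate 5 was not tested.

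The 5 libraries resembled each other to a degree that depended on abundance. Over the 8175 genes with a mean of at least 10 CPM, Spearman correlations across genes between pairs of libraries ran from 0.550 to 0.717. The 4 highest were those that involved replicate 1, and genes are not independent replicates. The 100 highest genes of each library shared 55 genes in all 5 and covered 165 in any. The median CV fell from 1.51 for protein-coding genes with means of 1 to 10 CPM to 0.641 at 30 to 100 CPM and 0.292 at 1000 CPM or more. Counting error alone would give 0.373, 0.109 and 0.0195. An edgeR fit with no groups gave a biological coefficient of variation of 0.626 at 100 CPM and 0.457 at 1000 CPM.

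**Figure D4:**
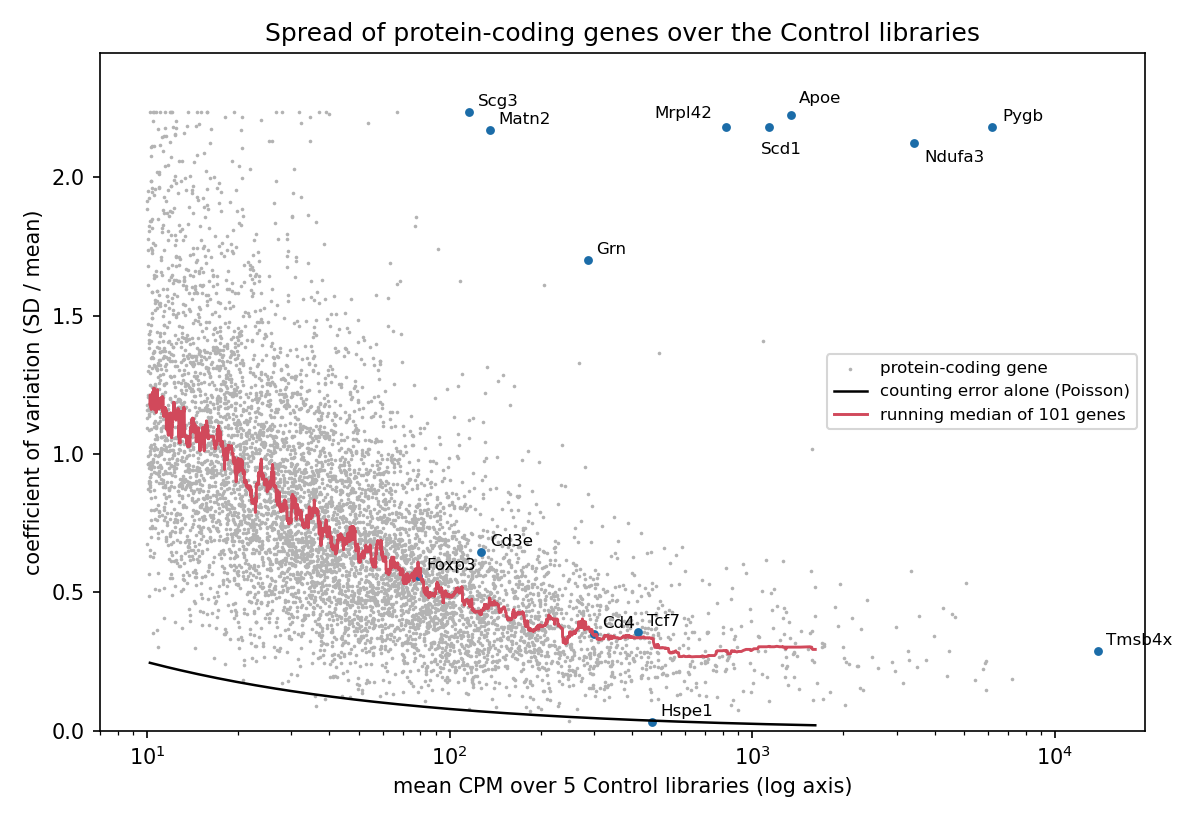
Coefficient of variation over the 5 Control libraries against mean CPM (log axis) for protein-coding genes with at least 10 CPM, with a running median and the value that counting error alone would give. Cd4, Tcf7 and Foxp3 lie near the running median, Hspe1 lies at counting error, and Pygb, Ndufa3 and Apoe are far above.

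Among 447 protein-coding genes with a mean of at least 300 CPM, the steadiest was Hspe1, the mitochondrial cochaperone, with 467, 459, 486, 464 and 447 CPM. Its CV of 0.0308 was 0.848 times what counting error gives. The next were Ube2d3, a ubiquitin-conjugating enzyme (649.5, 639, 619.9, 654 and 544 CPM), Eif4g2, a translation initiation factor (854, 996, 886, 934 and 823 CPM), Rps27rt, Atp5g3, Rps13, Usf2, Eml2, Rpl22 and Cox6c, with CVs up to 0.112.

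Most of the 10 least steady genes were high in 1 library. Pygb, a glycogen phosphorylase, had 148, 171, 30325, 148 and 142 CPM, and 98.03% of its summed CPM was in replicate 3. All its counts came from a region of 1493 bases on chromosome 2 at 150830515 to 150832007 (plus strand), 1244 of them in the 3′ UTR. Ndufa3, a subunit of respiratory complex I, had 152, 248, 221, 16449 and 62.0 CPM, highest in replicate 4, and Scd1, a fatty acid desaturase, had 1.78, 1.35, 60.3, 5576 and 47.3 CPM with the same library on top. Mrpl42, of the mitochondrial ribosome, had 33.2, 15.5, 4003, 16.2 and 12.3 CPM. Apoe, given above, had the highest CV of the 447, at 2.22. Hint1 had 570.0, 3806, 336, 361 and 336 CPM, Ptma 173, 292, 1685, 160.1 and 145 CPM and Hnrnpa1 275, 1538, 737, 986 and 4319 CPM, so that their peaks were in replicates 2, 3 and 5, and Hspa1b and Gimap1 completed the 10. Of the lower genes Grn, a secreted growth factor of myeloid cells, had 49.8, 70.0, 48.6, 106 and 1153 CPM, Matn2 had 8, 983, 18, 0 and 0 counts and Scg3 0, 0, 943, 0 and 0; these 3 were chosen after their values were seen.

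Such genes were a minority at high levels and common at low ones. Of 1676 protein-coding genes with at least 100 CPM, 46 (2.74%) had over 50% of their summed CPM in 1 library, and none of the 46 had it in replicate 1, 2 in replicate 2, 9 in replicate 3, 11 in replicate 4 and 24 in replicate 5. Of all 8175 genes with at least 10 CPM, 1871 (22.9%) did. In the T cell identity and state lists 1 of 66 genes at 100 CPM or more did so, namely Cxcr6.

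Detection separated replicate 1 from the others. It had a count for 14849 genes, against 10151 to 10843, at a similar total. There were 6513 genes (11.8% of the 55364 in the file) with a count in all 5 libraries. Genes counted in replicate 1 alone numbered 2456, with a median of 1.19 CPM, and genes counted in only 1 of the other libraries 444 to 601. Genes that were missing from replicate 1 alone numbered 31, against 485 to 644 for each other library. Of 7332 protein-coding genes with at least 10 CPM, 10.4% were highest in replicate 1, 20.6% in replicate 2, 21.9% in replicate 3, 19.9% in replicate 4 and 27.3% in replicate 5. Replicate 1 was also the lowest for the fewest of these genes, 12.1% against 19.6 to 24.7% in the others. It also had the highest shares of ribosomal protein genes and processed pseudogenes, as given above.

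**Figure D5:**
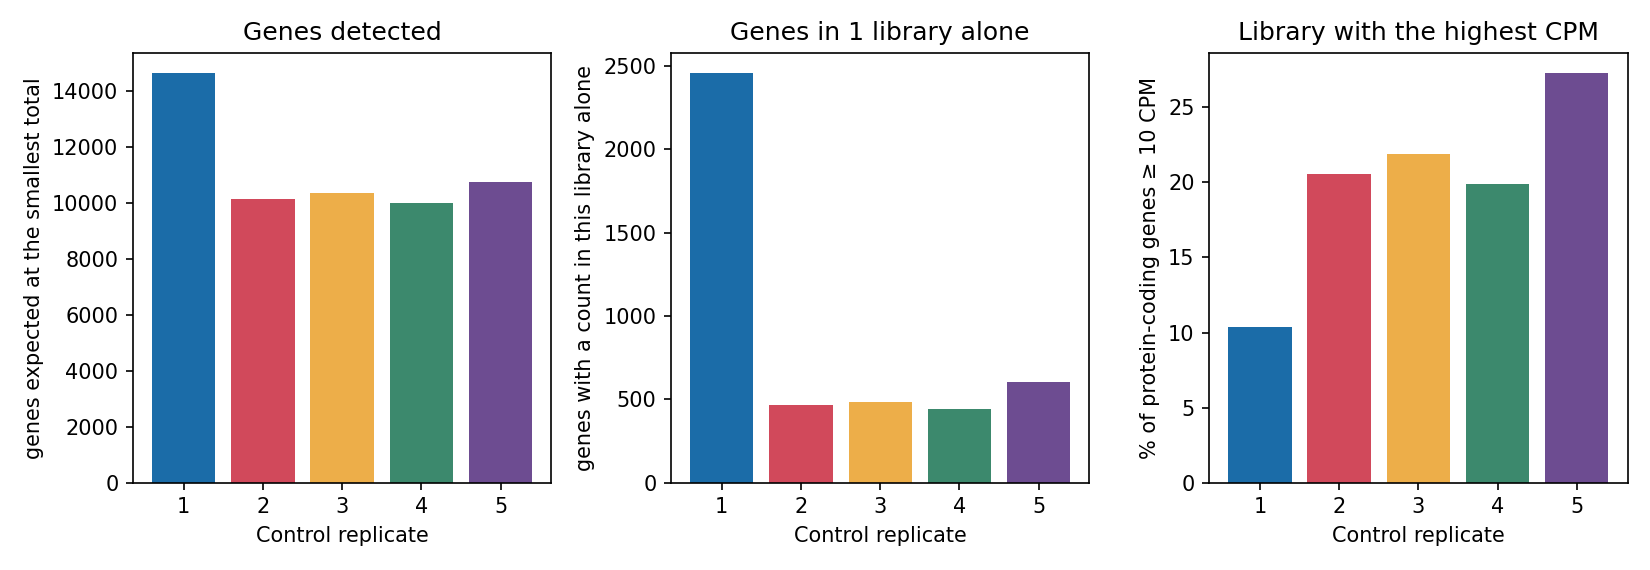
For each Control library, genes expected at the smallest total (left), genes counted in that library alone (middle) and the share of protein-coding genes of at least 10 CPM that are highest there (right). Replicate 1 stands apart with 14643 expected genes, 2456 genes of its own and 10.4% of maxima.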

How the data were processed

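RNA of sorted CD4 T cells was measured by 3′ end sequencing in 5 Control libraries. The authors deposited raw counts per 3′ region, and alignment is listed as HISAT2 2.1.0 on mm10, with FastQC 0.11.8 for read quality and DESeq2 as a further tool, per the submitters' processing notes. For the counting tool, its strand setting and the annotation, the entry is: not given in the sources used here. In the deposited counts, pairs of regions that overlap by at least 90% were compared, where either had at least 200 counts. The smaller count was over 50% of the larger in 81 of 137 pairs on the same strand and in 27 of 441 on opposite strands. Overlapping regions on the same strand, which hold 11.2% of counts, can therefore count a read more than once, though not all such pairs had similar counts. Here the counts of 116000 regions were summed to 55364 genes and divided by the library's total (CPM), with Python 3.11.15, pandas 2.3.3 and scipy 1.17.1. The spread without groups was fitted with edgeR 4.0.16 in R 4.3.3. The fit was also run on simulated counts, whose spread was set lower for most genes than in these libraries. That run therefore does not show how well the fit holds here. TMM, DESeq2 1.42.0 size factors, other totals, filters and leaving out each library were tried as alternatives. Depth sets the floor of 3 counts given in the report.

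Genes were named by rule: the 30 highest protein-coding genes, up to 6 leading members of each list, ordered families, the 10 steadiest and 10 least steady genes of at least 300 CPM, and members at 0. Other genes named were chosen after their values were seen, and some genes are not reported here. Members and lists were chosen with earlier results of these data known. No comparison between groups was made, and the remaining libraries and the authors' table of their comparison were not used here.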

Additional observations from a re-analysis of the deposited data

Results flagged for a closer look

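Of 279 values checked, 42 (15.1%) had 1 library whose gap to the nearest of the others took up more than 0.71 of the range over the 5 libraries. For normally distributed values, chance alone picks out about 1 in 20 such groups. The CPM values checked here need not follow that distribution, so their chance rate is not known, and genes were in part named for their spread. Replicate 1 had a count for 14849 genes against 10151 to 10843 in the others.

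Among list sums, replicate 1 stood apart in CD8 T cell at 9.49 CPM (others 0 to 1.23), Dendritic cell at 11.9 CPM (others 0 to 1.23) and Erythroid and platelet at 91.3 CPM (others 0 to 12.8). Single genes with replicate 1 apart were Ccnd2 at 2293 CPM (others 1336 to 1473), Gm10073 at 11753 CPM (others 3237 to 5697) and Il16 at 383 CPM (others 223 to 231).

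Single genes with replicate 2 apart were Dusp1 at 469 CPM (others 135 to 178), Hint1 at 3806 CPM (others 336 to 570.0), Matn2 at 662 CPM (others 0 to 11.1) and Rgs1 at 718 CPM (others 205 to 286).

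Among list sums, replicate 3 stood apart in Gamma delta T cell at 47.4 CPM (others 0 to 13.05). Single genes with replicate 3 apart were Bax at 123 CPM (others 240.1 to 271), Ctss at 329.6 CPM (others 142 to 185), Cxcr5 at 43.0 CPM (others 0 to 2.97), Ddx3y at 86.7 CPM (others 0 to 22.9), Grap2 at 158 CPM (others 346 to 387), Ikzf1 at 395 CPM (others 241 to 263), Il13 at 28.3 CPM (others 0 to 5.34), Mrpl42 at 4003 CPM (others 12.3 to 33.2), Ptma at 1685 CPM (others 145 to 292), Pygb at 30325 CPM (others 142 to 171), S1pr1 at 386 CPM (others 147 to 202) and Scg3 at 579.9 CPM (others 0 to 0).

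Among list sums, replicate 4 stood apart in Follicular helper at 2620.1 CPM (others 1988 to 2058). Single genes with replicate 4 apart were Ccl5 at 382 CPM (others 158 to 204), Cxcr6 at 366 CPM (others 47.3 to 138), Il10 at 30.7 CPM (others 2.46 to 8.61), Irf4 at 36.5 CPM (others 0 to 8.30), Ndufa3 at 16449 CPM (others 62.0 to 248), Scd1 at 5576 CPM (others 1.35 to 60.3) and Tigit at 26.7 CPM (others 0 to 6.76).

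Among list sums, replicate 5 stood apart in Proximal TCR signalling at 8114 CPM (others 5069 to 5877), S100 annexin and galectin at 3532 CPM (others 5169.5 to 5414), Translation factors at 17712 CPM (others 22487 to 23616), Macrophage and monocyte at 7047 CPM (others 265 to 335) and Fibroblast at 957 CPM (others 307 to 443). Single genes with replicate 5 apart were Apoe at 6676 CPM (others 0 to 23.4), Grn at 1153 CPM (others 48.6 to 106), Samhd1 at 2052 CPM (others 1124 to 1361), Tnf at 89.7 CPM (others 0 to 3.69) and Traj18 at 697 CPM (others 191 to 271).

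Whether these libraries differ for a technical or a biological reason was not tested.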

How the results depend on the processing

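No paired analysis was possible because no groups were compared and the 5 Control libraries are a single group. Leaving out each library in turn moved the number of protein-coding genes of at least 100 CPM with over 50% in 1 library from 46 to between 82 and 136, where fewer libraries raise each share by construction, and the median CV to between 0.351 and 0.397. With all genes with a count, the median Spearman correlation of library pairs was 0.701 against 0.597. With totals that leave out ribosomal protein genes and pseudogenes, which raise every level by construction, the list sums were 6223 CPM for the T cell receptor and CD4, 2549 for Th1, 1758 for Th2, 2521 for follicular helper, 1376 for inhibitory receptors and 5544 for activation. Without regions that overlap another gene on the same strand, follicular helper genes summed to 2419 CPM and inhibitory receptors to 1319 CPM. Totals were smaller in that setting too, which raises genes outside such regions by construction, so these shifts do not show a dependence on overlap. Of 462 values for the other 42 lists, 441 moved by less than the spread between libraries and 21 by more. Leaving out a library, or taking the median over libraries, cannot move a sum by more than that spread by construction. The count of 441 therefore does not measure stability under those settings. Depth limits the low genes: a count of 0 allows up to 2.02 CPM in the smallest library, and at 1 to 10 CPM the median CV was 1.51.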
